A study of Mus musculus with 2 samples.

Results

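Major histocompatibility complex (MHC) class I genes and the genes that load peptide onto class I molecules are described here in haematopoietic stem cells (HSCs) of the mouse. The set holds 10 genes chosen by name, of 37820 genes in the deposited gene table: the light chain gene B2m, the heavy chain genes H2-K1, H2-D1, H2-Q6, H2-Q7 and H2-T23, the peptide transporter genes Tap1 and Tap2, the tapasin gene Tapbp and the transactivator gene Nlrc5. All 10 had a value in both deposited tables. The adult HSCs, labelled as replicates 1 and 2, came from bone marrow of mice of the B6129SF1 cross at 6 to 8 weeks of age. The fetal HSCs came from liver at embryonic day 14.5, per the labels' protocol. No fetal sample is listed in the series, so the fetal cells are known from that protocol alone. No mutation or treatment is named for either stage; the strain of the fetal animals, the sort markers and the number of animals pooled were not stated in the labels. Expression is given as the authors' mean FPKM (fragments scaled to transcript length and to the number of mapped fragments), with a column headed BM for bone marrow and a column headed FL for fetal liver in a transcript table and in a gene table. Each column is 1 value a gene, so no difference below has a replicate check or a test, the depth is unknown, and "higher" and "lower" describe the columns only. In bulk RNA, fewer cells of a type and less RNA per cell cannot be told apart.

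A class I molecule is a heavy chain paired with β2-microglobulin, the product of B2m, that holds a short peptide at the cell surface, where CD8 T cells and natural killer cells read it. H2-K1 and H2-D1 encode the classical, highly polymorphic heavy chains of these mice; H2-T23 encodes the nonclassical heavy chain Qa-1, and H2-Q6 and H2-Q7 belong to the Qa-2 family. Peptides made by the proteasome are pumped into the endoplasmic reticulum by the TAP1 and TAP2 transporter, and tapasin, the product of Tapbp, bridges the transporter to empty class I molecules. NLRC5 is drawn to class I promoters by DNA-binding factors of the RFX, CREB and NF-Y families and raises their transcription; interferons and NF-κB act on the same promoters. B2m lies on chromosome 2 and Nlrc5 on chromosome 8, and the other 8 members lie on chromosome 17.

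The promoters of the light chain and of all 5 heavy chain members are shown because the values below turn on these genes and because the heavy chain promoters can be read against each other. RefSeq promoter windows (GRCm38.p6, 250 bases before to 50 after the start) were matched for 8 of 10 members, all but Tap2 and Nlrc5; H2-K1 has 2 listed windows, and the last is used. Each stretch is read 5′ to 3′ on the gene's strand and ends before the start site; capitals mark, on either strand, the core of the interferon-stimulated response element (ISRE, GAAA, any 2 bases and GAAA), a form that is 1 base shorter (GAA, any 2 bases and GAAA), the NF-κB core (GGG, any 4 bases and CCC), the core of the cyclic AMP response element (TGACG) and the CCAAT box, some of which overlap. They lie at chr2:122147540-122147646 (+) for B2m, chr17:34000334-34000482 (-) for H2-K1, chr17:35262899-35263053 (+) for H2-D1, chr17:35424653-35424807 (+) for H2-Q6, chr17:35439014-35439151 (+) for H2-Q7 and chr17:36032741-36032833 (-) for H2-T23.
B2m: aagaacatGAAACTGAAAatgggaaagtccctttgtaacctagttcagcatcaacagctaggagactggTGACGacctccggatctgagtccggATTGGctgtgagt
H2-K1: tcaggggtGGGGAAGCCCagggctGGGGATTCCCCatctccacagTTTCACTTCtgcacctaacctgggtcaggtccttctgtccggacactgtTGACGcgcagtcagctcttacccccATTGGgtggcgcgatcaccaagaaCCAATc
H2-D1: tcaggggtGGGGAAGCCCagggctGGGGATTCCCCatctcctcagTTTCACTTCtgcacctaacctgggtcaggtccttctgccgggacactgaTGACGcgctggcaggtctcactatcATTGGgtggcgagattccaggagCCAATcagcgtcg
H2-Q6: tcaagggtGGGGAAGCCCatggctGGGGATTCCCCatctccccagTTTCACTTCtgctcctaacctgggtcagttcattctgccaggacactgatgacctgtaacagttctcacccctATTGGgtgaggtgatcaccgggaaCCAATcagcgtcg
H2-Q7: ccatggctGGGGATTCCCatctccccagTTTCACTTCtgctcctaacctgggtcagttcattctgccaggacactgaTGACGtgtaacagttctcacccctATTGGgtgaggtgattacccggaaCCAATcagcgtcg
H2-T23: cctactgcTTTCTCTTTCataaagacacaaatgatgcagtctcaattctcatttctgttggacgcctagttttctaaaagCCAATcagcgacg

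The NF-κB core was found in the windows of H2-K1, H2-D1, H2-Q6 and H2-Q7, and in 11.9% of all 32851 promoter windows. The same 4 genes held the shorter ISRE form, found in 7.52% of all windows, a motif that was added after the promoters were read. The full ISRE core was found for B2m and H2-T23 and in 3.44% of all windows. The TGACG core, part of the element through which CREB-family factors bind, was found for B2m, H2-K1, H2-D1, H2-Q7 and Tap1 and in 20.8% of all windows, and a CCAAT box for all 8 matched members and in 37.4%. The letters TATAAA were found for B2m, H2-K1 and H2-D1 (13.6% of all windows), from 26 to 21 bases before the start for H2-D1, after the start for H2-K1 and on the opposite strand for B2m. A GC box, GGGCGG, was found for Tap1 and Tapbp (35.7%). The window of Tap1 overlaps that of the immunoproteasome gene Psmb9, on the opposite strand, by 275 of its 300 bases. A match of letters is a description and not a bound site.

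The columns of the 2 tables did not pair by their headers, which decides how each value below can be read. For 7 of 10 members the BM column of the gene table lay within 10% of a constant ratio to the FL column of the transcript table: B2m had 349 FPKM in that gene table BM column and 332 FPKM in that transcript table FL column, and Tap2 had 23.3 and 22.2 FPKM. Over 3125 genes with 1 linked transcript and at least 1 FPKM in all 4 columns, 75.5% matched in this way, against 16.7% for the pair of columns headed BM and 13.8% for the pair headed FL. The FL column of the gene table matched the BM column of the transcript table for 13.3%, so it had no close match. The 3 members that did not match were H2-D1, H2-Q6 and H2-Q7. H2-D1 had 109 FPKM in the gene table BM column and 62.6 FPKM in the transcript table FL column, a ratio of 0.574. The tables are therefore described separately, the transcript table first, and which cells the gene table's BM values came from is uncertain.

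In the transcript table, all 10 members were higher in BM, Tapbp by less than 2-fold. Transcripts were summed per gene, and the ratio of BM to FL was taken as log2((BM + 0.1) / (FL + 0.1)) less its median across genes that reached 1 FPKM in BM and in FL, a shift of 0.01. This relative log2 ratio understates the difference of genes near 0.1 FPKM. All 10 members were expressed (1 FPKM or more in either column), and 9 of 10 were at least 2-fold higher in BM and none was lower, where 13.3% of 12220 expressed genes were higher and 8.82% lower (13.4% and 8.8% without taking off the shift). H2-Q6 and Nlrc5 reached 1 FPKM in BM alone, so the filter on level left no way for them to count as lower. The members' median relative log2 ratio was 2.26, beside 0.02 over all expressed genes. Together the members took 0.686% of the FPKM linked to genes in BM and 0.114% in FL.

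**Figure D1:**
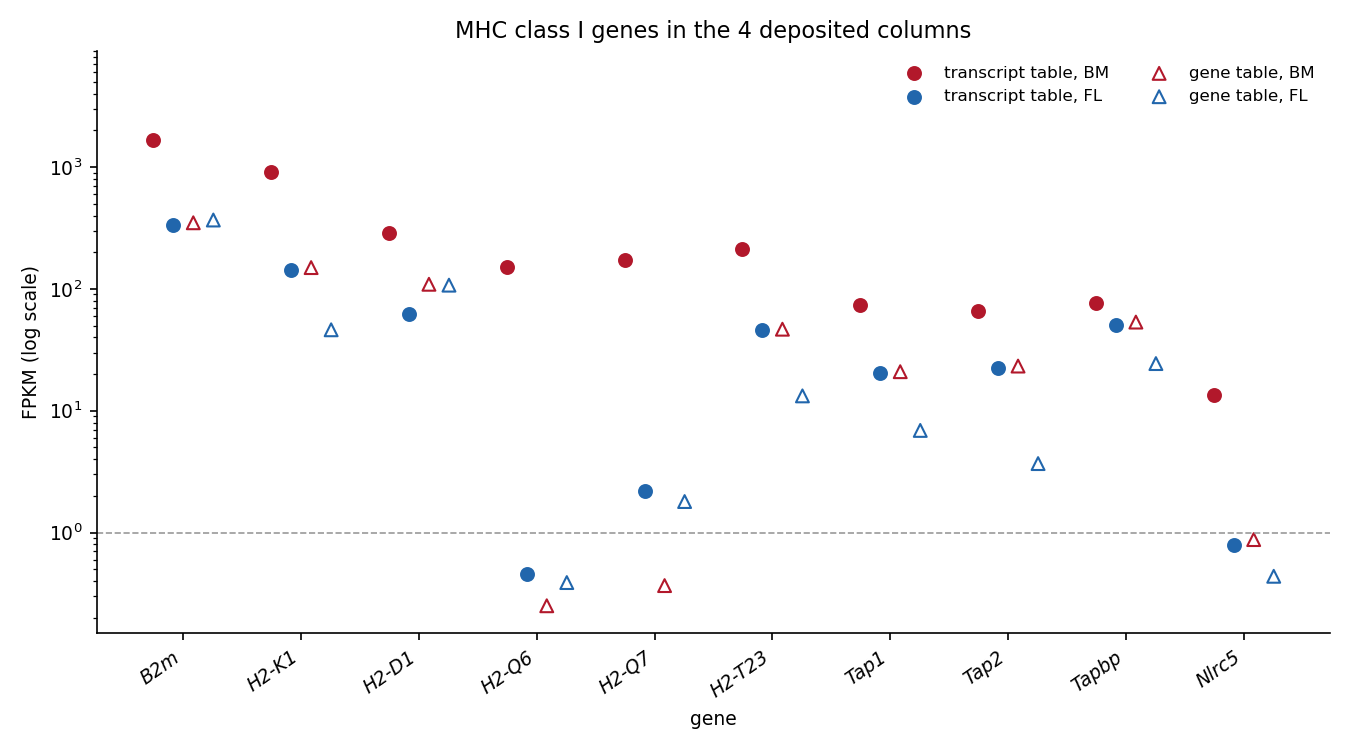
FPKM (log scale) of each member in the 4 deposited columns: filled circles, transcript table summed per gene; open triangles, gene table; red, columns headed BM; blue, columns headed FL; the dashed line marks 1 FPKM. The transcript table BM value is the highest of the 4 for each of the 10 genes, from 13.6 FPKM for Nlrc5 to 1662 FPKM for B2m.

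The light chain gene was the most abundant member. B2m had 1662 FPKM in BM and 332 FPKM in FL, a ratio of 5.01 and a relative log2 ratio of 2.32. It ranked 45th among 28009 genes in BM and 227th in FL. The classical heavy chain gene H2-K1 had 905 FPKM in BM and 143 FPKM in FL, a ratio of 6.34. H2-D1 had 287 FPKM in BM and 62.6 FPKM in FL, a ratio of 4.58. Both classical genes and the light chain thus lay 4.58 to 6.34 times higher in BM.

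The nonclassical genes split by their level in FL. H2-T23 had 212 FPKM in BM and 46.0 FPKM in FL, a ratio of 4.61, close to that of H2-D1. H2-Q7 had 172 FPKM in BM and 2.21 FPKM in FL, a relative log2 ratio of 6.22. H2-Q6 had 150.4 FPKM in BM and 0.457 FPKM in FL, under the level taken as expressed, with a relative log2 ratio of 8.07. These were the members with the highest ratios, and among the heavy chains their BM levels were the lowest of the 5 members. Both stayed at 1.80 FPKM or less in both columns of the gene table. The Qa-2 genes are known to differ between mouse strains in whether they are expressed, and the fetal strain was not stated, so stage and strain cannot be told apart for them.

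Because the H2 genes can share reads, their sum was taken as well. The 5 heavy chain members summed to 1726 FPKM in BM and 254 FPKM in FL, a ratio of 6.80 and a relative log2 ratio of 2.76. H2-K1 and H2-D1 alone summed to 1192 FPKM in BM and 205 FPKM in FL, a ratio of 5.80, so the higher sum in BM did not rest on H2-Q6 and H2-Q7. H2-K1 made up 52.4% of the 5-gene sum in BM and 56.2% in FL, and H2-D1 made up 16.6% and 24.6%. H2-Q6 and H2-Q7 together gave 323 FPKM in BM against 2.67 FPKM in FL. B2m per summed heavy chain, on the FPKM scale, was 0.963 in BM and 1.31 in FL.

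**Figure D2:**
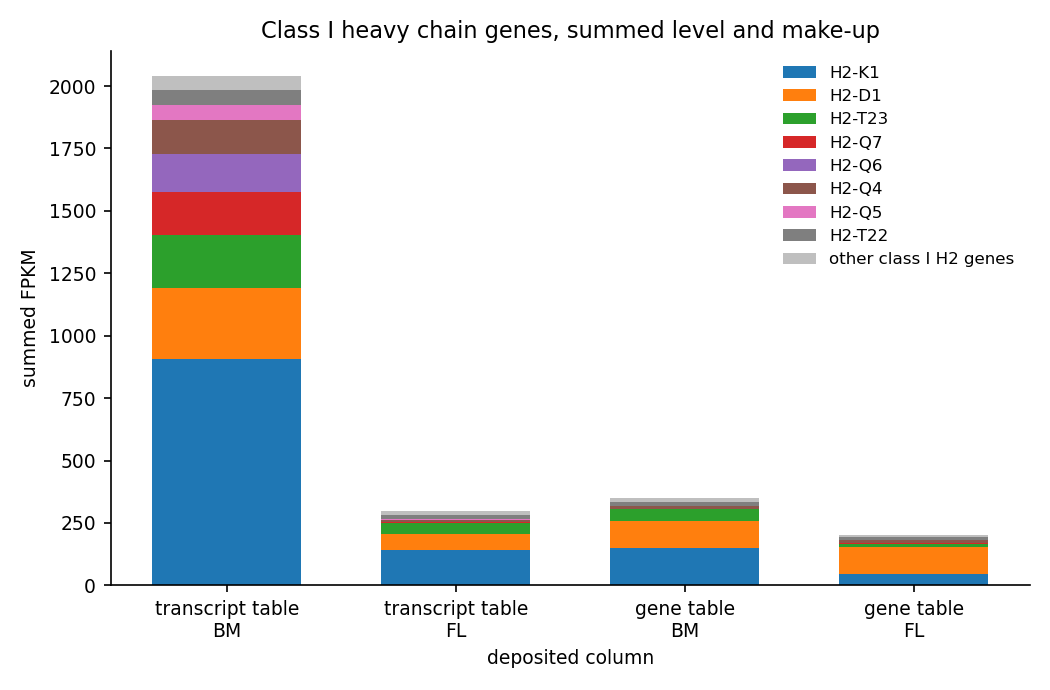
Summed FPKM of all listed class I heavy chain genes in each deposited column, stacked by gene. The transcript table BM column reaches 2039 FPKM, against 297 FPKM in the transcript table FL column, 348 FPKM in the gene table BM column and 201 FPKM in the gene table FL column, and segments for H2-Q4, H2-Q5, H2-Q6 and H2-Q7 are broad in the first column alone.

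Exact sharing of sequence was measured on the leading GENCODE transcript of each gene. It was taken as the share of 75-nt and 100-nt windows, the read lengths named in the protocol, that occur letter for letter in a transcript of another gene. For B2m and Nlrc5 that share was 0% at both lengths. For H2-K1 it was 1.55% at 75 nt and 0% at 100 nt, and for H2-D1 7.10% and 4.64%. H2-Q7 had the highest share of the members, 27.5% at 75 nt and 21.9% at 100 nt, with H2-Q6 as its main partner, and H2-Q6 had 21.1% and 13.0%. H2-T23 shared 13.1% and 7.28%, mainly with the gene model Gm7030. Most windows of each of the 10 members were thus found letter for letter in that gene alone, in the reference strain's sequence. Windows that differ by a few bases were not counted, so reads could be shared more widely than these values show.

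**Figure D3:**
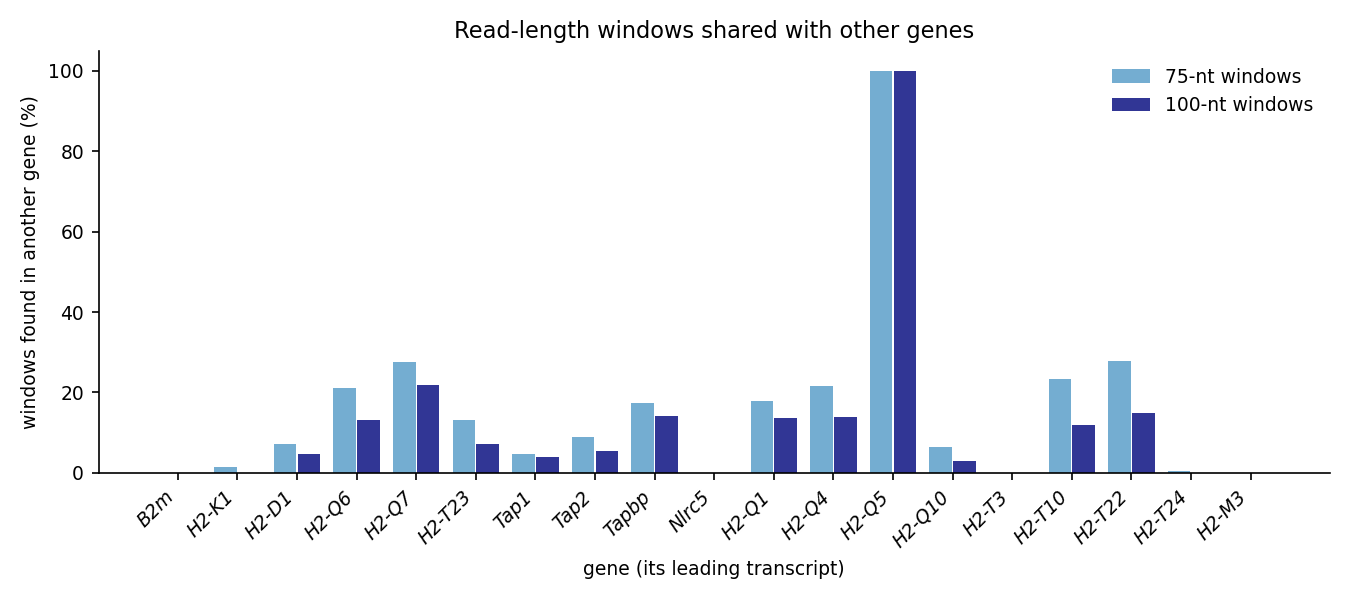
Share (%) of read-length windows of each gene's leading transcript that occur exactly in a transcript of another gene, for 75-nt (light) and 100-nt (dark) windows; class I members stand left of the other expressed heavy chain genes. H2-Q5 stands at 100%, all of it shared with H2-Q7, H2-Q7 at 27.5% and 21.9%, and B2m and Nlrc5 at 0%.

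Peptide supply and loading genes were higher in BM by less than the heavy chains. Tap1 had 73.4 FPKM in BM and 20.6 FPKM in FL, a ratio of 3.57. Its partner Tap2 had 66.4 FPKM in BM and 22.2 FPKM in FL, a ratio of 2.99. Tapbp, the bridge to the transporter, had 77.0 FPKM in BM and 51.0 FPKM in FL, a ratio of 1.51, and was the member within 2-fold.

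Nlrc5, the transactivator gene, was the least abundant member in BM, at 13.6 FPKM, against 0.788 FPKM in FL, where it was under the level taken as expressed. Its relative log2 ratio of 3.94 was the highest outside H2-Q6 and H2-Q7. Since FL was under 1 FPKM at unknown depth, the size of that ratio is uncertain. Of the promoters shown above, those of B2m and of the heavy chains are known targets of its product; the values here say nothing on binding. In order of level in BM the members ran B2m, H2-K1, H2-D1, H2-T23, H2-Q7, H2-Q6, Tapbp, Tap1, Tap2 and Nlrc5. In FL, Tapbp stood above H2-T23, and H2-Q7, Nlrc5 and H2-Q6 came last.

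Transcripts of the members were then examined one by one; how reads were split among isoforms was not stated. The 10 genes had 46 linked transcripts: 25 coding, 18 with a retained intron and 3 other processed transcripts. Of the 35 at 1 FPKM or more in either column, 31 were at least 2-fold higher in BM by the relative log2 ratio, 3 were within 2-fold and 1 was lower, where 23% of 26533 such linked transcripts of all genes were higher and 14.8% lower. Among the 35, those of H2-Q6, H2-Q7 and Nlrc5, H2-D1-203 and some others reached 1 FPKM in BM alone. The filter on level left no way for these to count as lower. The transcript that was lower in BM was the coding Tapbp-203, at 1.505 FPKM in BM and 3.90 FPKM in FL. The leading transcript was the same in BM and FL for 8 of 10 genes, all but H2-Q7 and Tap2.

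The leading coding isoforms of H2-K1 had similar shares in both columns. H2-K1-201 had 594 FPKM in BM and 100.2 FPKM in FL, which is 65.7% and 70.2% of the gene. H2-K1-205 had 242 FPKM in BM and 37.0 FPKM in FL, or 26.8% and 25.96%. H2-D1 was carried by H2-D1-202, at 247 FPKM in BM and 61.1 FPKM in FL, while H2-D1-203 had 33.4 FPKM in BM and 0.0855 FPKM in FL and so made up 11.7% of the gene in BM and 0.137% in FL. H2-T23 was nearly all H2-T23-201 (93.4% in BM and 95.1% in FL), and B2m had 1 linked transcript.

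Retained-intron forms were minor for most members. For H2-K1 they made up 2.56% in BM, with H2-K1-203 at 17.3 FPKM, and each of the 4 was under 0.1 FPKM in FL. For Tap1 they made up 12.4% in BM and 3.44% in FL, for Tapbp 23.01% and 17.2%, and for H2-Q7 21.9% and 37.2%. Tap2 was the member in which such a form was about as abundant as the coding transcripts: Tap2-202 had 33.9 FPKM in BM and 10.34 FPKM in FL, 51.0% and 46.5% of the gene. The coding transcripts of Tap2 alone had 32.6 FPKM in BM and 11.9 FPKM in FL, a ratio of 2.74. For Nlrc5, the share of Nlrc5-202 was 37.0% in BM, at 5.02 FPKM, and 3.40% in FL, at 0.0268 FPKM, with Nlrc5-201 at 8.495 FPKM in BM and 0.747 FPKM in FL.

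**Figure D4:**
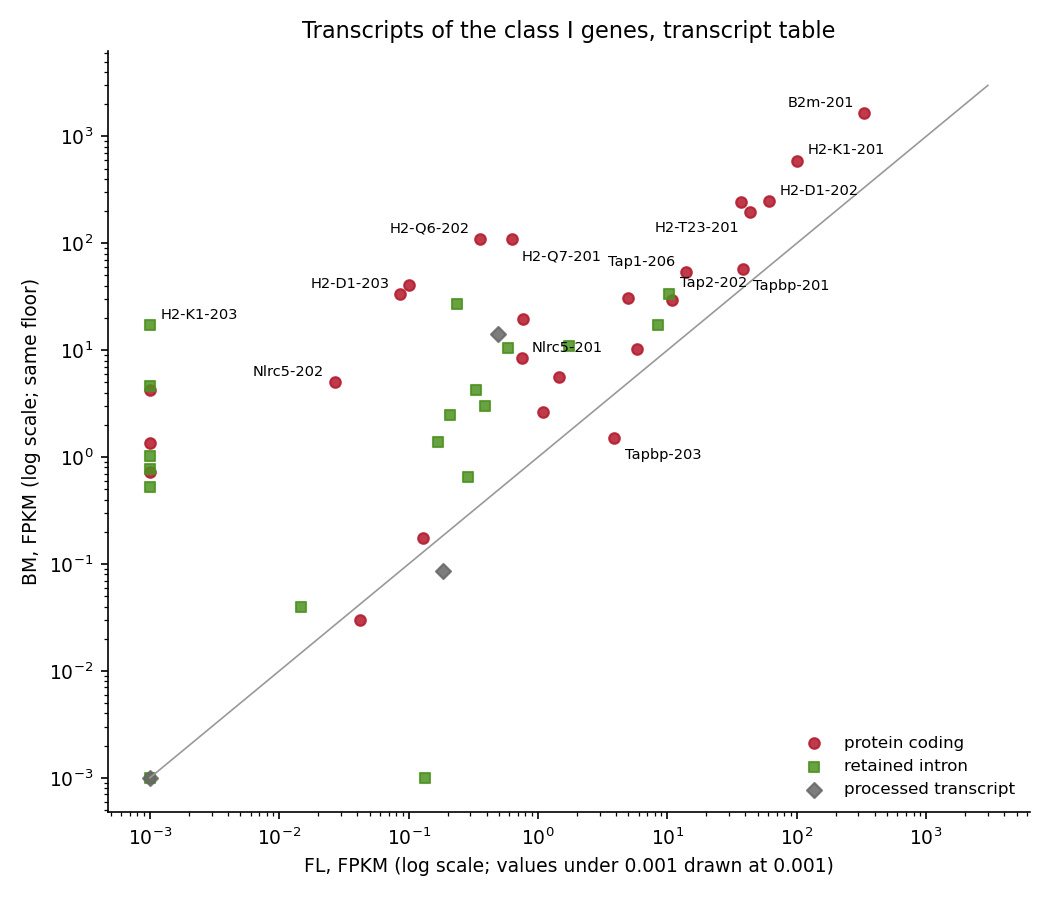
FPKM of the 46 linked transcripts of the 10 members in the transcript table, BM on the vertical and FL on the horizontal log axis, by transcript type; the line marks equal values, and values under 0.001 FPKM are drawn at 0.001. Most points lie above the line, and 7 transcripts, H2-D1-203 and Nlrc5-202 among them, had at least 1 FPKM in BM and under 0.1 FPKM in FL.

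Other expressed heavy chain genes all passed 2-fold toward BM by transcript, while most stayed within 2-fold by gene. Of 26 further class I heavy chain genes, 22 were matched and 9 were expressed in the transcript table. All 9 were at least 2-fold higher under its BM header (13.3% of all expressed genes), with a median of 2.26 like that of the members. Among the 9, H2-Q5, H2-Q10 and H2-T3 reached 1 FPKM in BM alone, so the filter on level left no way for them to count as lower. H2-Q4, a Qa-family gene, had 138 FPKM in BM and 9.71 FPKM in FL. H2-T22, which encodes a ligand of γδ T cells, had 60.4 FPKM in BM and 16.5 FPKM in FL, and H2-M3, which presents formylated bacterial peptides, had 13.7 and 6.23 FPKM. H2-Q5 had 57.8 FPKM in BM and 0.275 FPKM in FL, but the windows of its leading transcript were all shared with H2-Q7, so its separate value is uncertain. H2-T3 had 1.05 FPKM in BM and was listed at 0 in FL. All listed class I heavy chains together summed to 2039 FPKM in BM and 297 FPKM in FL. By gene, under headers that are uncertain, 5 of these other heavy chains were expressed. Of the 5, 1 was at least 2-fold higher in BM, 4 were within 2-fold and 0 were lower. The higher one was H2-T10, which reached 1 FPKM in BM alone and so could not count as lower.

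Most proteasome genes lay within 2-fold in the transcript table. The immunoproteasome swaps catalytic subunits that favour peptides suited to class I. Of its 5 genes 2 were at least 2-fold higher in BM, 3 were within 2-fold and none was lower, with a median of 0.40. The catalytic subunit gene Psmb8 had 216 FPKM in BM and 99.0 FPKM in FL. Psmb9 had 1.79 FPKM in BM and 0.758 FPKM in FL from its linked transcripts, and the catalytic subunit gene Psmb10 had 75.6 and 56.8 FPKM. Psmb9 reached 1 FPKM in BM alone, so it could not count as lower. The activator genes Psme1 and Psme2 had 291 and 118 FPKM in BM against 259 and 151 FPKM in FL. A further list, called constitutive proteasome here, held 15 genes, among them subunits that both forms share and the activator gene Psme3. All 15 lay within 2-fold and below the median gene, from -0.97 for the catalytic subunit gene Psmb5 to -0.46 for Psma6, with a median of -0.62.

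Partners in the endoplasmic reticulum were near the median gene. Of 8, 2 were at least 2-fold higher in BM and none lower, with a median of -0.0045. The chaperone genes Calr and Canx had 353 and 231 FPKM in BM against 427 and 247 FPKM in FL. Pdia3, whose product sits in the loading complex with tapasin, had 166 FPKM in BM and 181 FPKM in FL. The higher members were Tapbpl, which encodes the tapasin-related peptide editor TAPBPR, at 13.1 FPKM in BM and 6.33 FPKM in FL, and the aminopeptidase gene Lnpep, at 20.02 and 8.66 FPKM. The trimming enzyme gene Erap1 had 12.3 FPKM in BM and 8.72 FPKM in FL.

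Of 15 transcription factor genes that act on class I promoters, 2 were at least 2-fold higher in BM and none lower, with a median of 0.40; 2 of 15 is the share of all expressed genes that were higher, 13.3%. They were Rfx5, a DNA-binding partner of NLRC5, at 22.6 FPKM in BM and 9.44 FPKM in FL, and the interferon signalling gene Stat2, at 5.53 and 2.65 FPKM. Irf1, which carries interferon signals to class I genes, lay just inside 2-fold, with 39.0 FPKM in BM and 19.7 FPKM in FL and a relative log2 ratio of 0.98. The NF-κB subunit genes Rela and Nfkb1 had 37.3 and 72.8 FPKM in BM against 33.6 and 55.1 FPKM in FL. Of 7 interferon receptor and kinase genes none was higher and 1 was lower, the receptor gene Ifngr2, at 5.57 FPKM in BM and 11.8 FPKM in FL.

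Class I-like genes, whose products resemble heavy chains but do not present ordinary peptides, varied. Of 12 genes 11 were matched and 6 expressed in the transcript table, of which 2 were higher in BM, 1 lower and 3 within 2-fold. Cd1d1, which presents lipids, had 34.9 FPKM in BM and 9.44 FPKM in FL, and Mr1, which presents vitamin B metabolites, had 7.76 and 2.27 FPKM. The iron regulator gene Hfe was lower, at 1.81 FPKM in BM and 4.84 FPKM in FL. Fcgrt, the neonatal Fc receptor gene, had 15.95 FPKM in BM and 18.2 FPKM in FL. Over these lists, 17 of 65 expressed genes beside the members were at least 2-fold higher in BM and 2 were lower, where 13.3% of all expressed genes were higher and 8.82% lower. Without the other heavy chains, 8 of 56 (14.3%) were higher and 2 lower, near the share of all expressed genes that were higher.

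**Figure D5:**
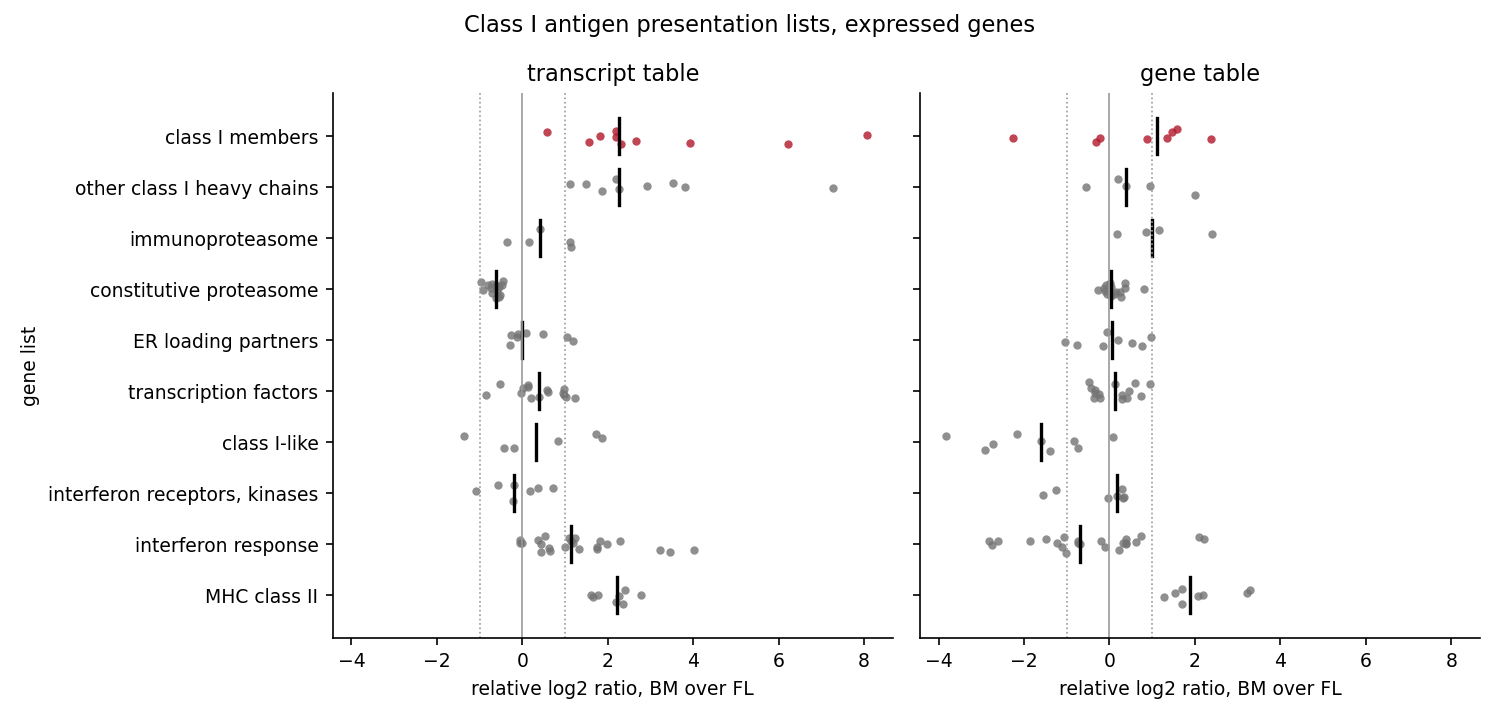
Relative log2 ratio of BM over FL for each expressed gene (points) of the class I members and related lists in the transcript table (left) and gene table (right); black bars are list medians, the grey line is the median gene and dotted lines mark 2-fold. In the transcript table the members and the other heavy chains have medians of 2.26 each and the constitutive proteasome one of -0.62; in the gene table the members' median is 1.12.

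Markers of other cells differed between the same columns, and their part in the class I values was not tested. Beside the counts below, 13.3% of all expressed genes were higher in BM and 8.82% lower. Many of the markers counted as lower were under 1 FPKM in BM, so the filter on level left no way for them to count as higher. Klrb1c, 1 of the 2 T and NK cell genes counted as higher, reached 1 FPKM in BM alone and could not count as lower. All 10 HSC markers were expressed in the transcript table, with 2 higher in BM and 8 within 2-fold, and they summed to 787 FPKM in BM and 554 FPKM in FL. All 10 macrophage markers were at least 2-fold lower in BM, summing to 6.54 FPKM in BM and 223 FPKM in FL, with Timd4 listed at 0 in BM. The erythroid list summed to 37.9 FPKM in BM and 429 FPKM in FL with 8 of 8 lower and Alas2 at 0 in BM, the neutrophil and monocyte list to 106 and 503 FPKM with 4 of 7 expressed lower, and the endothelial list to 149 and 147 FPKM with 4 of 10 lower. The T and NK cell list summed to 26.01 FPKM in BM and 7.34 FPKM in FL, with 3 of 8 expressed and 2 of 3 higher; Cd3d and Cd8a were listed at 0 in both columns, Cd3g and Gzma in BM, and Nkg7 had 20.97 FPKM in BM and 4.31 FPKM in FL. Of 6 B cell markers, which summed to 17.1 FPKM in BM and 22.2 FPKM in FL, 2 were expressed, none higher, with Ms4a1 at 0 in both columns and Pax5 in BM.

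In the gene table, whose BM column matches the FL column above, the members were not all higher in one column. BM and FL here are the headers of that table, and each direction below would be the opposite if those headers were turned. Turning the headers would not by itself pair the tables, since this FL column matched the transcript table BM column for 13.3% of genes. The column median was shifted by 0.24 (log2), which is taken off below. Of 8 expressed members 4 were at least 2-fold higher in BM, 1 was lower and 3 were within 2-fold, where 12.3% of 13834 expressed genes were higher and 23.6% lower (17.2% and 20.4% without taking off the shift). Read as FL over BM, 1 of the 8 was higher and 4 were lower. The median of the 8, BM over FL, was 1.12, beside -0.07 over all expressed genes. H2-Q6 and Nlrc5 were under 1 FPKM in both columns. H2-Q6 had 0.251 FPKM in BM and 0.389 FPKM in FL, and Nlrc5 had 0.876 and 0.438 FPKM.

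The transporter gene Tap2 had 23.3 FPKM in BM and 3.68 FPKM in FL, a relative log2 ratio of 2.39, and Tap1 had 20.9 FPKM in BM and 6.89 FPKM in FL, a ratio of 1.347 on the same scale. H2-K1 had 149 FPKM in BM and 46.2 FPKM in FL (1.45), and H2-T23 had 46.7 and 13.2 FPKM (1.57). Tapbp had 53.4 FPKM in BM and 24.4 FPKM in FL, which was 0.89 after the shift was taken off and past 2-fold, at 1.13, without that step.

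B2m and H2-D1 had nearly equal gene table levels in BM and FL. B2m had 349 FPKM in BM and 367 FPKM in FL, a relative log2 ratio of -0.32. H2-D1 had 109 FPKM in BM and 107 FPKM in FL, with a relative log2 ratio of -0.22 that was 0.02 without taking off the shift. H2-Q7 had 0.367 FPKM in BM and 1.80 FPKM in FL, a ratio of 0.204 for BM over FL and of 4.90 for FL over BM. H2-Q7 reached 1 FPKM in FL alone, so the filter on level left no way for it to count as higher. The 5 heavy chains summed to 306 FPKM in BM and 169 FPKM in FL, a ratio of 1.81, and H2-D1 made up 35.7% of that sum in BM and 63.5% in FL. B2m per summed heavy chain was 1.14 in BM and 2.18 in FL.

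The FL column of the gene table carried other cells' transcripts at high level: all 10 endothelial markers were at least 2-fold lower in BM, summing to 159.5 FPKM in BM and 2614 FPKM in FL, and none was listed at 0. The macrophage list summed to 235 FPKM in BM and 711 FPKM in FL, with 7 of 10 lower and 3 higher, and the neutrophil and monocyte list to 535 and 48.2 FPKM, with 6 of 7 expressed higher. Beside these counts, 12.3% of all expressed genes were higher in BM and 23.6% lower. Some of the markers counted as higher reached 1 FPKM in BM alone and could not count as lower. Endothelial cells and macrophages also express class I genes; the part of these cells in the gene table ratios was not tested. Among the related lists, Psmb8 had 104 FPKM in BM and 16.5 FPKM in FL, and Psmb10 had 59.5 and 22.6 FPKM. Of 9 expressed class I-like genes 6 were lower in BM, Procr and Fcgrt among them, where 23.6% of all expressed genes were. Of these 6, Raet1d, Raet1e and H60b reached 1 FPKM in FL alone, so the filter on level left no way for them to count as higher.

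The genes outside all lists whose levels ran most like B2m over the 4 columns were Csgalnact1, Rab27b, Lrmda, Zfp932 and Lat, by the Euclidean distance of log2(FPKM + 0.1) profiles, each centred on its mean, among 7245 genes averaging at least 10 FPKM. Csgalnact1 was the nearest, at a distance of 0.13, with 43.9 and 8.13 FPKM in BM and FL of the transcript table and 8.12 and 8.71 FPKM in BM and FL of the gene table. For the summed heavy chains the nearest were Clec2d, Fam69b, Tle6, Pdcd4 and Ccdc191. Clec2d, at a distance of 0.27, had 52.6 and 7.19 FPKM in BM and FL of the transcript table and 7.61 and 5.36 FPKM in the gene table. The 4 columns include the pair that nearly repeats, so these profiles rest on few independent values.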

How the data were processed

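The authors deposited FPKM values per gene and per transcript, with the headers BM and FL in either table, read here as the authors' means. Per the submitters' processing notes, TopHat, Cufflinks, featureCounts of Subread, edgeR and the build mm9 were used; roles, versions and the annotation release were not stated. In the decimals, 42.8% of non-zero gene table BM values carried the pattern of a mean of 2 rounded values, and 65.8% of gene table FL values that of a mean of 3. Of transcript table values, 32.7% in BM and 32.4% in FL carried the pattern of a mean of 2. FPKM keeps no depth, so no interval is given. The BM columns were assigned to the adult group by header, and the FL columns from the protocol alone.

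Symbols and transcript links came from GENCODE M21 by identifier (32819 of 37820 genes; 76507 of 87641 transcripts, summed to 28009 genes). Unlinked transcripts carried 10.9% of BM and 10.4% of FL FPKM. Promoter coordinates are those of RefSeq on GRCm38.p6, not of mm9. Windows and ratios were computed in Python 3.11.15, pandas 2.3.3 and numpy 2.4.6, and figures drawn with matplotlib 3.10.9. The calls were run on simulated data with large planted changes in well-expressed genes, which does not test calls near 2-fold or at low level. The members and gene lists were chosen with earlier results of these data known. All members were named; of related lists, genes at 10 FPKM or more in either column, or 2-fold apart, could be named, and of companion and cell marker lists the 4 highest and those at 0. The genes most like B2m and the heavy chain sum were the 5 nearest. The alternatives were other pseudocounts, scalings, filters, thresholds, transcript choices and heavy chain sets.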

Additional observations from a re-analysis of the deposited data

How the results depend on the processing

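In the transcript table, the count of members at least 2-fold higher in BM was 9 under every pseudocount, scaling, filter and transcript choice tried, 10 at a 1.5-fold threshold and 7 at a 4-fold threshold. Scaling to the total without ribosomal protein and mitochondrial genes gave a median of 2.46 and a heavy chain sum of 2.96. That sum was 2.53 for H2-K1 and H2-D1 alone and 2.64 with the highest transcript per gene. The related genes that were higher numbered 6 at a 4-fold threshold. In the gene table, the members' median was 1.36 without centring, 1.347 for genes at 5 FPKM or more, which leaves out H2-Q7, and 0.75 with no filter. The heavy chain sum there was 0.86 without centring and 0.51 for H2-K1 and H2-D1 alone. At a 4-fold threshold 1 member was higher, and at 5 FPKM or more 0 members were lower. Of 110 single-gene values under these alternatives (70 in the transcript table and 40 in the gene table), 1 changed sign, that of H2-D1 in the gene table. Summing coding transcripts only was chosen after seeing the data and left 9 members higher, with a median of 2.28. No paired analysis was possible because the columns carry no replicate numbers, and no replicate could be left out of a mean. The unknown depth limits values near 0.1 FPKM, chiefly those of H2-Q6, H2-Q7 and Nlrc5 outside the transcript table BM column.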

Other observations

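Interferon response genes, which share regulators with class I genes, differed among themselves. By transcript, 13 of 23 expressed genes were at least 2-fold higher in BM and none was lower, with a median relative log2 ratio of 1.13. Some of the 13 reached 1 FPKM in BM alone, so the filter on level left no way for them to count as lower. Of all expressed genes there, 13.3% were higher and 8.82% lower. The most abundant were 3 membrane protein genes that restrict virus entry: Ifitm2 had 548 FPKM in BM and 405 FPKM in FL, Ifitm1 had 507 and 327 FPKM, and Ifitm3, the one of them past 2-fold, had 471 and 220 FPKM. Bst2, whose product tethers budding virus, had 81.9 FPKM in BM and 82.2 FPKM in FL. By gene, under headers that are uncertain, 2 of 23 expressed were higher in BM and 9 lower, with a median of -0.69. Some of the 9 reached 1 FPKM in FL alone and could not count as higher. The shares of all expressed genes were 12.3% higher and 23.6% lower by gene.

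Of the MHC class II list, 8 of 8 expressed genes were at least 2-fold higher in BM by transcript, with a median of 2.22 and at low level. The share of all expressed genes was 13.3%. By gene, 8 of 8 were higher under the BM header, with a median of 1.89, where 12.3% of all expressed genes were. In that table only H2-DMa and Cd74 reached 1 FPKM in FL. The filter on level thus left no way for the other expressed class II genes to count as lower there. The gene table BM column matches the transcript table FL column, so the gene count does not repeat the transcript comparison. H2-DMa, which encodes a class II peptide editor chain, had 48.2 FPKM in BM and 6.91 FPKM in FL of the transcript table. In the gene table H2-DMa had 7.28 FPKM in BM and 1.27 FPKM in FL. The class II chain gene H2-Ab1 had 17.3 FPKM in BM and 3.68 FPKM in FL by transcript. The class II transactivator gene Ciita was under 1 FPKM in all 4 columns, with 0.725 and 0.0611 FPKM in BM and FL by transcript, and 0.311 FPKM in BM by gene, where FL was listed at 0.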
